A study of Homo sapiens with 16 samples.

Results

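The regions described here carried a peak of H3K27 acetylation (H3K27ac) in both A2780 and A2780cis cells and no peak of H3K9 acetylation (H3K9ac) in either line. Autosomal H3K27ac peaks of both lists were joined wherever they overlapped by 1 bp or more, which gave 31493 regions, of which 13782 held a peak of both lists and are called common. Of the 9607 common regions wider than 2000 bp and up to 10000 bp, 1409 overlapped no H3K9ac peak of A2780 and none of A2780cis (14.7%, 95% Wilson interval 14.0 to 15.4). These 1409 regions are the members. They were chosen by the positions and widths of the peaks in these 4 lists, which are therefore used only to describe them, and the members were compared over the 4 H3K27ac lists that the rule did not read.

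A2780 is an epithelial ovarian cancer cell line of endometrioid type that is sensitive to cisplatin (cPt), and A2780cis is its resistant derivative, which was kept in medium with cPt. CAOV4 is a line of high-grade serous type, and CAOV4cis was made resistant from it by exposure to cPt and kept in cPt as well. The other 2 lists came from A2780 cells in which *MBD3* was knocked down for 1 week by 1 of 2 doxycycline-inducible shRNAs, shMBD3.26 or shMBD3.232. The shRNA cells were selected populations, A2780cis and CAOV4cis each stand for 1 resistant derivative, and all samples carried a *D. melanogaster* spike-in of 5%. Each condition was 1 library, so no difference between conditions has a replicate check and no p-value was computed. The cells with a control shRNA were not analysed here, and untransduced A2780 cells serve as the reference for the shRNA cells, so that an effect of the knockdown and one of transduction or selection cannot be told apart.

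Acetylation of H3K27 marks active enhancers and active promoters, and it is placed mainly by the acetyltransferases CBP and p300. H3K9ac is strongest at the promoters of transcribed genes and is also found at active enhancers, where it is usually weaker. MBD3 is a subunit of NuRD, a complex that joins nucleosome remodeling with histone deacetylation, so its loss can change where acetylated histones are found.

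The lists give the start and end of each peak and no signal, since the deposited score is 0 in every row. The 8 lists held from 15058 to 27932 autosomal peaks with median widths from 1600 to 2800 bp. The depth behind a peak is unknown, and acetylation below the calling threshold leaves no trace in them. Chromosomes 20, 21 and 22 had no peak in any list, and no peak of chromosome 1 ended beyond position 197193000, so the members come from the covered stretches of 19 autosomes. Positions are given in build hg19 (GRCh37), which the submitters' processing notes name. On chromosome 13 the A2780cis H3K9ac list held 102 peaks against 523 in A2780, and on chromosome 6 the A2780 H3K9ac list ended at position 143833200 while its H3K27ac list went on to 149069200. Of the members, 27 lay on chromosome 13, and 10 lay on chromosome 6 beyond the end of the A2780 H3K9ac list.

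As the merged H3K27ac peaks describe them, the members were narrow. Their median width was 3400 bp (quartiles 2600 and 4600), against 5200 bp (3800 and 7000) in the 5783 common regions of the same width limits with H3K9ac in both lines. The A2780 peak covered a median of 75.8% of a member and the A2780cis peak 86.7%. Only part of this length was shared by the lines, since a median of 46.2% of the member was covered in both, against 70.6% in regions with H3K9ac in both lines. In 762 members more bases were covered in A2780cis, in 602 more were covered in A2780, and 45 had equal lengths. A single A2780 peak made up the A2780 side of 1346 members, and a single A2780cis peak made up the other side of 1382.

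The share of common regions without H3K9ac fell with width, and the rule read both. A wider region meets a peak of any list more often, so this is given as a description. Of the common regions up to 2000 bp, 1105 of 2094 lacked H3K9ac (52.8%), and of those over 10000 bp 29 of 2081 did (1.39%). Around the lower limit of the rule the change was gradual, with 144 of 356 common regions without H3K9ac at 2000 bp, just outside, and 145 of 394 at 2200 bp, just inside. Around the upper limit there were 2 of 77 at 10000 bp and 3 of 64 at 10200 bp. The edge of the H3K9ac rule was gradual too. The 114 members with an H3K9ac peak no more than 1 kb away had a CAOV4 peak in 34.2%, a CAOV4cis peak in 35.1%, an shMBD3.26 peak in 61.4% and an shMBD3.232 peak in 64.9%. In the 197 common regions just outside, where H3K9ac peaks covered at most 400 bp in all, these shares were 40.1%, 41.1%, 63.5% and 64.5%.

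Common regions without H3K9ac were seen less often in the other lines than common regions as a whole. A CAOV4 H3K27ac peak lay in 481 of the 1409 members (34.1%, 31.7 to 36.7), against 64.1% of all common regions of the same width limits. A CAOV4cis peak lay in 500 members (35.5%, 33.0 to 38.0), against 64.4%. The intervals of CAOV4 and CAOV4cis both lay far below the share of all common regions. In regions with H3K9ac in both A2780 lines, the shares were 76.9% (75.8 to 77.9) for CAOV4 and 76.2% (75.1 to 77.3) for CAOV4cis. Regions with H3K9ac in 1 A2780 line lay between, with a CAOV4 peak in 48.3% of the 1233 regions with H3K9ac in A2780 only and in 53.9% of the 1182 regions with H3K9ac in A2780cis only.

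In the A2780 cells with an *MBD3* shRNA the members again had the lowest share and regions with H3K9ac in both lines the highest, at higher levels. With shMBD3.26, 928 members had a peak (65.9%, 63.3 to 68.3), against 90.2% of all common regions. With shMBD3.232, 901 members had one (63.9%, 61.4 to 66.4), against 87.7%. Nearly all regions with H3K9ac in both lines were found with each hairpin, at 98.1% (97.7 to 98.4) and 96.4% (95.9 to 96.9). The intervals of the members did not meet those of regions with H3K9ac in both lines for any of the 4 lists. Intervals cover counting error only and leave out the spread between libraries.

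**Figure D1:**
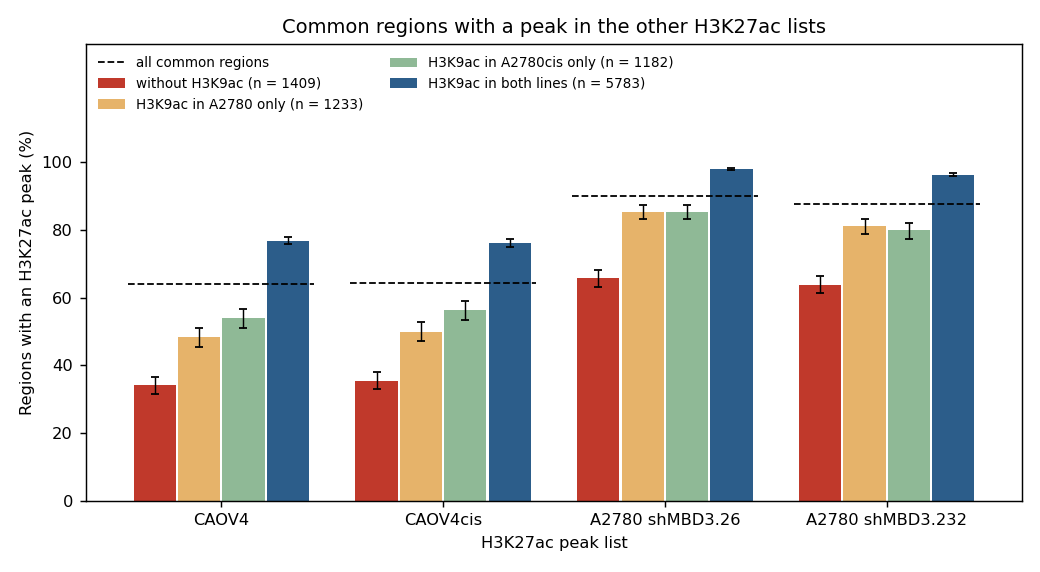
Share of common H3K27ac regions of over 2000 and up to 10000 bp with a peak in each of the 4 H3K27ac lists that did not choose them, by H3K9ac in A2780 and A2780cis. Bars give the share in percent, error bars its 95% Wilson interval (counting error only) and dashed lines the share over all common regions. In each list the members (red) have the lowest bar, 34.1% in CAOV4 and 65.9% with shMBD3.26, and regions with H3K9ac in both lines the highest, 76.9% and 98.1%.

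The shares of the members were also lower at equal width. Weighted to the widths of the members, regions with H3K9ac in both lines had a CAOV4 peak in 69.4%, a CAOV4cis peak in 68.9%, an shMBD3.26 peak in 96.2% and an shMBD3.232 peak in 94%. Among regions of 2 to 3 kb, a CAOV4 peak was listed in 32.5% of 570 members and in 61.1% of 700 regions with H3K9ac in both lines. Among regions of 8 to 10 kb, it was listed in 37.2% of 43 members (24.4 to 52.1) and in 86.3% of 840 such regions. The members thus kept a nearly flat CAOV4 share over all widths, from 29.5% to 37.3%, while the share of regions with H3K9ac grew with width. With the hairpins the widest members had higher shares, but the rise was not steady. An shMBD3.26 peak was listed in 64.4% of members of 2 to 3 kb and in 63.6% of those of 5 to 6 kb. At 8 to 10 kb it was listed in 81.4% of 43 (67.4 to 90.3). For shMBD3.232 the shares were 58.2%, 62.1% and 81.4%. Regions with H3K9ac in both lines had little room to rise, with 94.6% at 2 to 3 kb and 99.5% at 8 to 10 kb for shMBD3.26. For shMBD3.232 these were 91.3% and 99.2%.

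**Figure D2:**
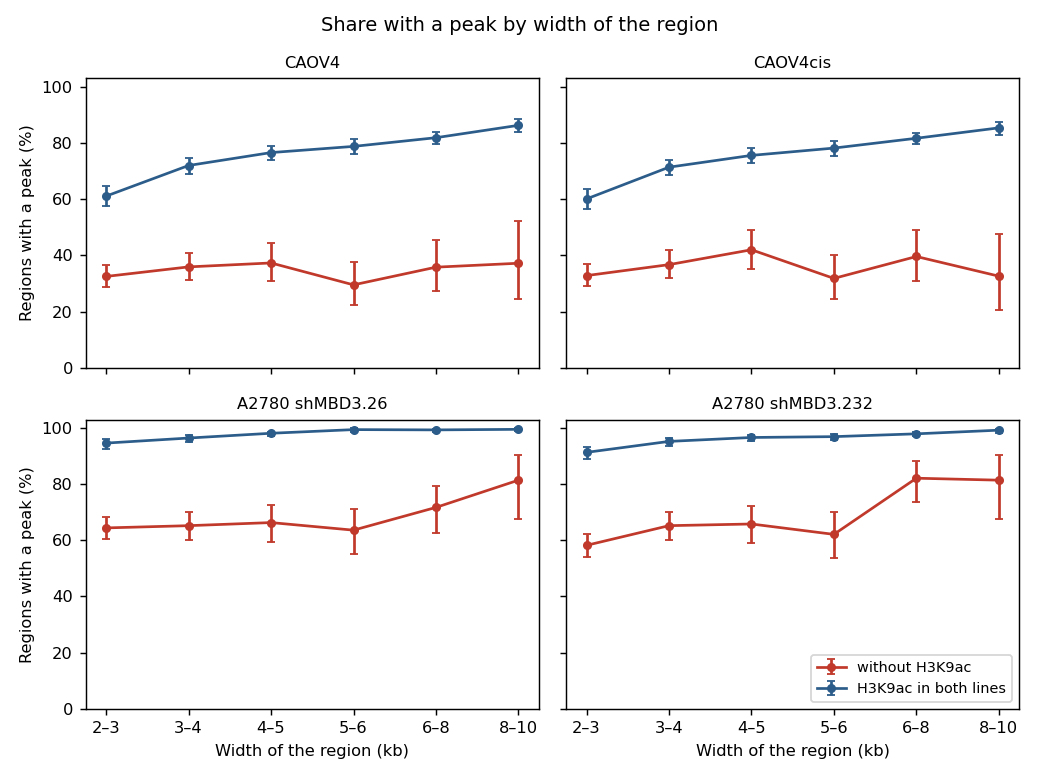
Share of regions with a peak (percent) against the width of the merged region (kb), 1 panel for each list, for members (red) and for regions with H3K9ac in both A2780 lines (blue), with 95% Wilson intervals. The members lie below the other regions at every width, with a CAOV4 peak in 32.5% against 61.1% at 2 to 3 kb and in 37.2% against 86.3% at 8 to 10 kb.

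The lengths covered in the 2 lines that chose the members went with the other lists in different ways. In members with up to 1000 bp of A2780 peak, an shMBD3.26 peak was listed in 42.5% of 174 and an shMBD3.232 peak in 40.2%. In members with over 4000 bp of A2780 peak, the shares were 77.6% and 80.0% of 205. All common regions showed a gradient of the same direction, from 54.0% to 97.2% with shMBD3.26 and from 44.1% to 96.3% with shMBD3.232, so it was not particular to the members. The length covered in A2780cis made less of a difference to the hairpin lists. In 134 members with up to 1000 bp of A2780cis peak, the shares were 56.7% with shMBD3.26 and 55.2% with shMBD3.232. In 287 with over 4000 bp they were 64.8% and 69.0%. Over all common regions the shares went from 65.8% to 95.1% with shMBD3.26 and from 64.1% to 93.5% with shMBD3.232. The hairpin cells were made from A2780, and the difference between A2780 and A2780cis length is given as a description. For CAOV4 the lowest and highest bins of A2780 length gave 25.3% and 36.1%, and those of A2780cis length gave 25.4% and 34.8%, against 33.2% and 76.0%, and 32.2% and 75.1%, over all common regions.

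How far the 2 lines covered the same bases of a member went with all 4 lists. In the 308 members with up to 25% of their bases covered in both lines, a CAOV4 peak was listed in 25.6%, a CAOV4cis peak in 24.4%, an shMBD3.26 peak in 46.4% and an shMBD3.232 peak in 45.8%. In the 176 members with over 75% covered in both, these shares were 47.2%, 51.1%, 81.8% and 87.5%. Over all common regions the same bins gave 32.2% and 75% for CAOV4 and 57.4% and 97.4% for shMBD3.26. A low share at little overlap between the lines was thus a trait of common regions in general. Even with over 75% covered in both lines, members were below the 2257 regions with H3K9ac in both lines and the same overlap, of which 80.8% had a CAOV4 peak and 99.4% an shMBD3.26 peak.

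Where a peak of another list was present, it covered a median of 2200 bp of the member in CAOV4, 2200 bp in CAOV4cis, 2000 bp with shMBD3.26 and 2200 bp with shMBD3.232. In regions with H3K9ac in both lines, which are wider, these lengths were 3000, 3200, 3400 and 3600 bp. As a share of the region, the median was 61.1% in CAOV4 and 63.2% in CAOV4cis, against 60% and 66.7% in regions with H3K9ac in both lines. With shMBD3.26 it was 54.5% and with shMBD3.232 62.5%, against 69.7% and 72.3%. The members were therefore covered over shorter lengths in each list, and relative to their width the difference was small in both CAOV4 lines and larger with both hairpins.

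The members differed widely in how many of the 4 lists held them. All 4 lists had a peak in 220 members (15.6%, 13.8 to 17.6), against 51.0% of all common regions and 66.0% of those with H3K9ac in both lines. None of the 4 did in 205 members (14.5%, 12.8 to 16.5), against 3.96% of all common regions and 0.692% of those with H3K9ac in both lines. The most frequent number was 2 lists, in 450 members (31.9%), against 18.8% of all common regions. Of these, 318 had a peak with both hairpins and in neither CAOV4 line, the most frequent of the 16 patterns at 22.6% of members, so that the acetylation common to A2780 and A2780cis was listed in all A2780-derived cells and in no CAOV4 cells. This pattern made up 15.6% of all common regions and 11.4% of those with H3K9ac in both lines.

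**Figure D3:**
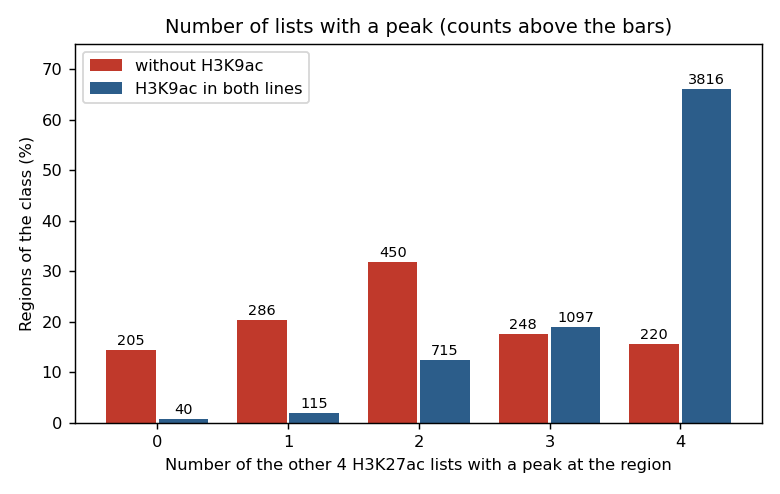
Share of regions (percent) against the number of the other 4 H3K27ac lists with a peak at the region, for members (red) and for regions with H3K9ac in both A2780 lines (blue), with counts above the bars. The members spread over all numbers, with 205 in none and 220 in all 4 lists, while 3816 of the regions with H3K9ac are in all 4.

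The CAOV4 pair gave the second contrast between a sensitive and a resistant line. Both lines had a peak in 331 members (23.5%, 21.4 to 25.8), against 54.0% of all common regions, and neither had one in 759 (53.9%, 51.3 to 56.5), against 25.5%. A peak in CAOV4 only was listed in 150 members (10.6%, 9.14 to 12.4), against 10.1% of all common regions. A peak in CAOV4cis only was listed in 169 (12.0%, 10.4 to 13.8), against 10.4%. The shares with a peak in only the sensitive or only the resistant line were thus close to the background. With 1 library of each line, a direction between CAOV4 and CAOV4cis was not tested. Of the 650 members with a peak in either line, 319 had it in 1 line only (49.1%, 45.3 to 52.9), against 27.4% of all common regions and 22.3% of those with H3K9ac in both A2780 lines. This ratio was higher because fewer members had a peak in either line, while the shares in 1 line only were close to the background.

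The 2 hairpins against *MBD3* differed from each other over the members more than over other common regions. Both had a peak in 708 members (50.2%, 47.6 to 52.9), against 83.7% of all common regions. With shMBD3.26 only, a peak was listed in 220 members (15.6%, 13.8 to 17.6), against 6.46%. With shMBD3.232 only, it was listed in 193 (13.7%, 12.0 to 15.6), against 3.97%. Of the 1121 members with a peak with either hairpin, 413 had it with 1 only (36.8%, 34.1 to 39.7), against 11.1% of all common regions and 3.36% of those with H3K9ac in both lines. In these 413 members an A2780 peak was listed with 1 hairpin and missing with the other. The lists differed in length, with 27932 autosomal peaks in A2780, 23270 with shMBD3.26 and 18936 with shMBD3.232. The part of this in the missing peaks was not tested. Both hairpins lacked a peak in 288 members (20.4%, 18.4 to 22.6), against 5.87% of all common regions. Every member had a peak in untransduced A2780 by the rule, so that a missing peak can be seen here and a gained one cannot.

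The CAOV4 and the hairpin lists went together. Among the 331 members with a peak in both CAOV4 lines, 66.5% (61.2 to 71.3) had one with both hairpins and 9.97% (7.19 to 13.7) with neither. Among the 759 members with a peak in neither CAOV4 line, 41.9% (38.4 to 45.4) had one with both hairpins and 27% (24.0 to 30.3) with neither. In members with a peak in CAOV4 only, both hairpins had one in 58.7% of 150 (50.7 to 66.2), and in those with a peak in CAOV4cis only in 48.5% of 169 (41.1 to 56.0). Over all common regions the CAOV4 and hairpin lists went together in the same way, with both hairpins in 94.5% of regions with both CAOV4 lines and in 61.2% of those with neither. The intervals of the members with a peak in CAOV4 only and in CAOV4cis only overlapped, but they cover counting error over regions only. Regions are not replicates of a line, so a difference between the sensitive and the resistant CAOV4 line was not tested.

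The widest members of each pattern show what these classes look like on the chromosome. Of the 5 widest with a peak in all 4 other lists, the first, chr12:110752201-110762200, was 10000 bp wide and was covered over 6200 bp in A2780, 9000 bp in A2780cis, 400 bp in CAOV4, 1600 bp in CAOV4cis, 3000 bp with shMBD3.26 and 1200 bp with shMBD3.232. The second, chr17:48435601-48445200, was covered over 7600 bp in A2780, 7000 bp in A2780cis, 2000 bp in CAOV4, 3200 bp in CAOV4cis, 4600 bp with shMBD3.26 and 2600 bp with shMBD3.232. In both, each of the 4 other lists covered less than either A2780 or A2780cis. The third, chr11:2396801-2406200, was covered over 8000 bp in A2780, 9200 bp in A2780cis, 1000 bp in CAOV4, 2000 bp in CAOV4cis, 4000 bp with shMBD3.26 and 6000 bp with shMBD3.232. The fourth, chr16:3656601-3665400, was covered over 8800 bp in A2780, 3400 bp in A2780cis, 4600 bp in CAOV4, 6400 bp in CAOV4cis, 4600 bp with shMBD3.26 and 5000 bp with shMBD3.232. It was the only one of the 5 in which all 4 other lists covered more than A2780cis. The fifth, chr5:130609601-130618200, was covered over 8600 bp in A2780, 6000 bp in A2780cis, 3000 bp in CAOV4, 3400 bp in CAOV4cis, 1600 bp with shMBD3.26 and 1000 bp with shMBD3.232. In all 5 the CAOV4cis peak covered more of the member than the CAOV4 peak. Over all members with such a peak, the median covered length was 2200 bp in both lines.

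The 5 widest members in none of the 4 other lists shared a wide A2780cis peak. They were ranked by a width that the A2780 and A2780cis lists set, so this is a description only. Of all 1409 members, 513 were covered over their whole length in A2780cis and 387 in A2780. The first, chr9:97216001-97225400, was covered over all its 9400 bp in A2780cis and over 600 bp in A2780. The second, chr7:16446801-16456000, was covered over 9200 bp in A2780cis and 5400 bp in A2780. The third, chr3:106324801-106332000, was covered over 7200 bp in A2780cis and 1600 bp in A2780. In each of them the A2780cis peak spanned the whole member. The remaining members, chr14:26472201-26479200 and chr12:14575601-14582200, were likewise spanned by an A2780cis peak of 7000 bp and 6600 bp, with 2000 bp and 3400 bp covered in A2780. The nearest H3K9ac peak lay 44000 bp from the first of the 5 and 1200 bp from the fifth, so they were found both close to and far from H3K9ac.

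A peak in both CAOV4 lines and with neither hairpin was listed in 33 members (2.34%), against 0.843% of all common regions and 0.156% of those with H3K9ac in both lines. The widest, chr17:38545201-38554000, was covered over all its 8800 bp in A2780cis and in CAOV4cis, over 1800 bp in A2780 and over 2200 bp in CAOV4. In this member both resistant lines had a peak across the whole region, while the peaks of both sensitive lines were shorter and the hairpin lists had none. The next, chr12:52454801-52461400, was covered over 2200 bp in A2780, 5000 bp in A2780cis, 200 bp in CAOV4 and 1600 bp in CAOV4cis. The third, chr17:28161201-28166800, was covered over 1400 bp in A2780, 5600 bp in A2780cis, 1000 bp in CAOV4 and 2000 bp in CAOV4cis. In all 3 the resistant line of each pair had the longer covered length, but these members were picked by width from the 33. The A2780cis list had wider peaks in general, with a median of 2800 bp against 2200 bp in A2780. Where members had a CAOV4 or CAOV4cis peak, its median length in the member was 2200 bp in both lines.

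Among the 318 members with both hairpins and neither CAOV4 line, the widest lay on chromosome 8 and was covered over 9800 bp in A2780, 1600 bp in A2780cis, 1000 bp with shMBD3.26 and 2600 bp with shMBD3.232. The second, chr7:98989801-98999200, was covered over 6000 bp in A2780, 9400 bp in A2780cis, 5200 bp with shMBD3.26 and 7000 bp with shMBD3.232. The third, chr3:86221801-86231000, was covered over 6800 bp in A2780, 9200 bp in A2780cis, 6400 bp with shMBD3.26 and 1200 bp with shMBD3.232. The hairpins covered unlike lengths of these members, and neither was longer in all 3.

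Of the members with a peak in 1 line of the CAOV4 pair, the widest with CAOV4cis, chr3:33464601-33474400, was covered over 400 bp in CAOV4cis, 7000 bp in A2780, 9800 bp in A2780cis, 6200 bp with shMBD3.26 and 7400 bp with shMBD3.232. The next, chr19:14256601-14266000, was covered over 3200 bp in CAOV4cis, 7800 bp in A2780, 9400 bp in A2780cis, 8800 bp with shMBD3.26 and 7600 bp with shMBD3.232. The third, chr1:153709801-153718600, was covered over 1800 bp in CAOV4cis, 2200 bp in A2780, 6800 bp in A2780cis, 3000 bp with shMBD3.26 and 1200 bp with shMBD3.232. In none of them did the CAOV4cis peak reach the length of the A2780cis peak. The widest with CAOV4 and not CAOV4cis, chr1:24282801-24292800, was covered over 400 bp in CAOV4, 5800 bp in A2780, 10000 bp in A2780cis, 8600 bp with shMBD3.26 and 7800 bp with shMBD3.232. The next, chr4:2508601-2518200, was covered over 400 bp in CAOV4, 800 bp in A2780, 9400 bp in A2780cis, 3000 bp with shMBD3.26 and 800 bp with shMBD3.232. The third, chr11:67253601-67263000, was covered over 3200 bp in CAOV4, 7200 bp in A2780, 7400 bp in A2780cis and 5000 bp with shMBD3.232, and had no shMBD3.26 peak. A covered length of 400 bp, as in 3 of these 6 members, is 2 steps of the 200 bp grid on which the peaks lie, and such a member entered its class by a short overlap.

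Many members lay close to H3K9ac. The nearest H3K9ac peak of either line was a median of 7400 bp away (quartiles 2800 and 19000), and in 18 members it adjoined the region without sharing a base. Up to 12500 bp of distance the shares in the 4 lists changed little, with an shMBD3.26 peak in 61.4% of the 114 members up to 1 kb away. In the 167 members over 50 kb away, an shMBD3.26 peak was listed in 86.2% (80.2 to 90.6), an shMBD3.232 peak in 70.1% (62.7 to 76.5), a CAOV4 peak in 43.7% (36.4 to 51.3) and a CAOV4cis peak in 47.9% (40.5 to 55.4). The members farthest from H3K9ac were therefore those most often found in each of the 4 lists. Of these 167 members, 33 lay on chromosome 6 and 7 on chromosome 13, where the A2780cis H3K9ac list held few peaks. On chromosome 6, only 10 of all members lay beyond the end of the A2780 H3K9ac list and 2 beyond that of A2780cis. Without both chromosomes, the shares of the other 127 were 82.7% (75.2 to 88.3) with shMBD3.26, 64.6% (55.9 to 72.3) with shMBD3.232, 40.9% (32.8 to 49.6) in CAOV4 and 44.1% (35.8 to 52.8) in CAOV4cis. The interval of shMBD3.26 then lay above the share over all members, that of CAOV4cis did so by a small margin, and those of the other lists did not.

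**Figure D4:**
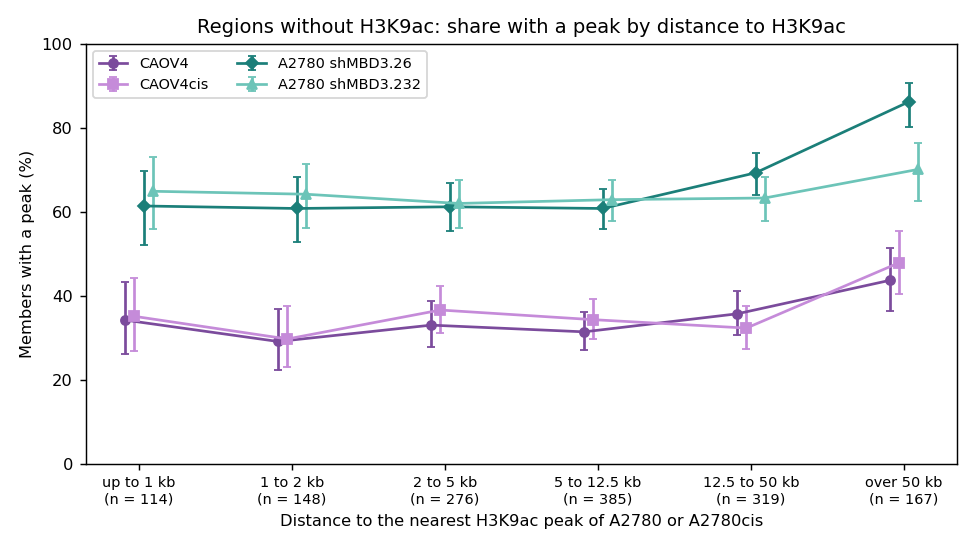
Share of the members with a peak (percent) in each of the 4 H3K27ac lists against the distance to the nearest H3K9ac peak of A2780 or A2780cis, in 6 bins with the number of members under each, and 95% Wilson intervals. The shares change little up to 12500 bp, and the 167 members over 50 kb away have the highest, 86.2% with shMBD3.26 and 43.7% in CAOV4.

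The 3 members farthest from H3K9ac lay in stretches without any listed H3K9ac. The first, chr6:149067201-149069400, lay 2201 kb from the nearest A2780cis H3K9ac peak and 5234 kb from the nearest A2780 one. It lay beyond the last peak of both H3K9ac lists on that chromosome, so its distances depend on where these lists end. It was covered over 1800 bp in A2780, 2200 bp in A2780cis, 800 bp in CAOV4, 800 bp in CAOV4cis and 1600 bp with shMBD3.26, and had no shMBD3.232 peak. The second, chr6:148662601-148665600, lay in the same stretch and was covered over 800 bp in A2780, 3000 bp in A2780cis, 600 bp in CAOV4, 1600 bp with shMBD3.26 and 1000 bp with shMBD3.232. Only the third, chr14:41097801-41100200, lay between listed H3K9ac peaks, 1192 kb from the nearest one. It was covered over 800 bp in A2780, 2400 bp in A2780cis, 1400 bp with shMBD3.26 and 400 bp with shMBD3.232, and in neither CAOV4 line.

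Most members had neighbors. When merged H3K27ac regions no more than 12500 bp apart were joined into clusters, 904 members were in a cluster with a region that had H3K9ac (64.2%, 61.6 to 66.6), 153 with other regions of which none had H3K9ac (10.9%, 9.34 to 12.6), and 352 stood alone (25%, 22.8 to 27.3). Of the regions with H3K9ac in both lines, 32.8% stood alone (31.6 to 34.0). The nearest merged region was a median of 3400 bp from a member and 5600 bp from a region with H3K9ac in both lines. The members thus lay more often beside other acetylated regions.

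Members that stood alone had the highest share in each of the 4 lists, least clearly with shMBD3.232. An shMBD3.26 peak was listed in 82.7% (78.4 to 86.3) of those alone, in 70.6% (62.9 to 77.2) of those with neighbors without H3K9ac, and in 58.5% (55.3 to 61.7) of those with a neighbor that had H3K9ac. With shMBD3.232 the shares were 69.9% (64.9 to 74.4), 60.8% (52.9 to 68.2) and 62.2% (59.0 to 65.3). In CAOV4 they were 42.6% (37.6 to 47.8), 33.3% (26.4 to 41.1) and 31.0% (28.0 to 34.1). At a joining distance of 5 kb the shMBD3.232 shares lay closer together, at 66.2%, 62.0% and 62.5%. In regions with H3K9ac in both lines, a CAOV4 peak was listed in 74.9% of those alone and in 77.8% of the others. An shMBD3.26 peak was listed in 98.9% and 97.6% of them, which left little room for a difference. The shMBD3.26 list was the longer one, with 23270 autosomal peaks against 18936 with shMBD3.232. With the 18936 widest peaks of each list, the share over all members was 59.9% with shMBD3.26 and 63.9% with shMBD3.232. A difference between the hairpins by neighborhood was therefore not read from these shares and was not tested.

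Members themselves seldom lay together, but they were only 14.7% of the common regions of these widths. The same count was not made for other common regions. Of 1321 clusters made of members alone, 1239 held a single member, 76 held 2 and 6 held 3. The 3 clusters of 3 that come first in order all lay on chromosome 7. In chr7:1098601-1118000, 1 member had a CAOV4 peak, 2 a CAOV4cis peak, 1 an shMBD3.26 peak and 2 an shMBD3.232 peak. In chr7:72866001-72889600, no member had a peak in either CAOV4 line, 2 had one with shMBD3.26 and 3 with shMBD3.232. In chr7:75889001-75913200, 3 members had a peak in CAOV4, 2 in CAOV4cis, 3 with shMBD3.26 and 3 with shMBD3.232. Neighboring members thus could have the same pattern or different ones.

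The members were spread over all 19 autosomes that held peaks, from 7.37% of the common regions on chromosome 9 to 19.6% on chromosome 16. On each of the 19, the share of members with a peak was below that of regions with H3K9ac in both lines, in each of the 4 lists. For CAOV4 the members ranged from 4.35% (chromosome 9, 23 members) to 51.9% (chromosome 13, 27 members) with a median of 31.2%, and the regions with H3K9ac from 62.3% to 90.6%. For shMBD3.26 the members ranged from 54.1% (chromosome 12) to 96.3% (chromosome 13), with 91.2% on chromosome 6 next, and for shMBD3.232 from 45.9% (chromosome 12) to 85.2% (chromosome 13). Chromosomes 6 and 13, with the highest shMBD3.26 shares, were those on which an H3K9ac list ended early or held few peaks, and the part of this in the shares was not tested.

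**Figure D5:**
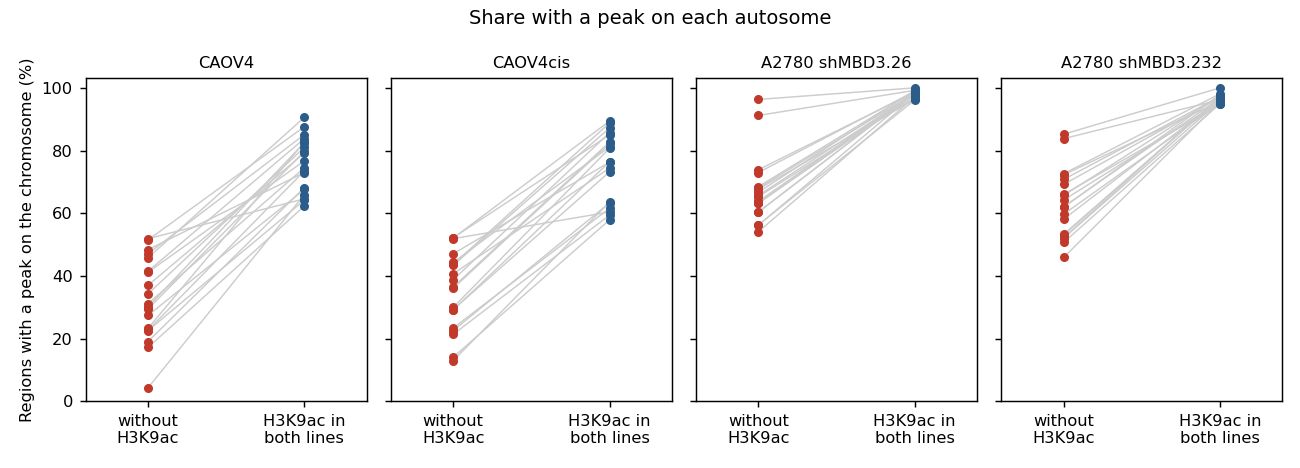
Share of regions with a peak (percent) on each of 19 autosomes, 1 panel for each H3K27ac list, for members (red) and for regions with H3K9ac in both A2780 lines (blue), with a line joining the values of a chromosome. The members lie lower on all 19 chromosomes in each list, with medians of 31.2% in CAOV4 and 65.3% with shMBD3.26.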

How the data were processed

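H3K27ac was profiled by ChIP-seq in 6 conditions and H3K9ac in 2, with 1 library each. Per the labels and the study's methods, the authors aligned reads with Bowtie2, quantile normalized them with a custom R script and called peaks per sample with MACS2. They deposited 1 list per sample with peak positions in bp and a score of 0 in every row, so the score was not used. All but 1 of the 179695 deposited peaks lie on a 200 bp grid with gaps of 1000 bp or more between them. No source used here names the step behind this, so widths are those of the lists.

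Regions, overlaps of at least 1 bp, covered lengths and distances were computed in Python 3.11.15 with numpy 2.4.6 and pandas 2.3.3, figures with matplotlib 3.10.9, and the region rule was tested on simulated data. Shares carry 95% Wilson intervals. Shares at member widths weight each width by its number of members. Regions are not replicates of a condition, so no test was made. The members and the lists were chosen with earlier results of these data known. The regions named are the widest of each pattern (5 for all or none of the 4 lists, otherwise 3), the 3 farthest from H3K9ac and 3 clusters with most members, ties broken by chromosome and start. Alternatives are given in the closing section. Input libraries, genes and sequences at the regions were not analysed here, the last 2 because they need a genome of build hg19, and the coordinates of 1 named region are not reported here.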

Additional observations from a re-analysis of the deposited data

How the results depend on the processing

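No paired analysis was possible because each condition is 1 library and the result comes from no test. Over the 8 alternatives for the shares, all 40 shares of a list or of both hairpins stayed below the share of all common regions, and all 8 shares with neither hairpin stayed above it. Of the 64 shares, 33 stayed within the interval of the reported value. The number of members was 871 when H3K9ac within 5 kb also counted, 474 at widths over 4000 bp, 2591 with only the A2780 H3K9ac list and 2642 with only the A2780cis H3K9ac list. When at least 50% of a member had to be covered, a peak was listed in 21.6% (CAOV4), 21.4% (CAOV4cis), 37.5% (shMBD3.26) and 41.7% (shMBD3.232), in CAOV4 only in 7.24%, in CAOV4cis only in 7.10%, with both hairpins in 25.5% and with neither in 46.3%. With peaks over 2 kb, these shares were 21.4%, 23.6%, 31.9%, 37.2%, 6.46%, 8.59%, 20.8% and 51.7%. Both settings drop short overlaps or peaks by construction, and they put the share with a peak in CAOV4 only and in CAOV4cis only below that of all common regions (9.42% and 12.1% at 50% covered, 9.38% and 11.7% for peaks over 2 kb). With the 18936 widest peaks of each list, the shares that moved were 31.5% (CAOV4), 31.7% (CAOV4cis), 59.9% (shMBD3.26), 9.65% (CAOV4cis only), 47.3% (both hairpins) and 23.5% (neither). With peaks up to 1 kb away also counted, they were 37.3% (CAOV4), 38.8% (CAOV4cis), 69.3% (shMBD3.26) and 53.9% (both hairpins). In members without H3K9ac within 5 kb they were 68.8% (shMBD3.26) and 53.4% (both hairpins), and in members over 4000 bp wide 69.8% (shMBD3.232), 54.9% (both hairpins) and 16.9% (neither). With an overlap of 50% of the shorter peak for common regions, and without chromosome 13, which was chosen after seeing the data, no share left its interval. Leaving out chromosomes 6 and 13 for the members over 50 kb from H3K9ac, also chosen after seeing the data, kept their 4 shares within the reported intervals. The share of members in a cluster with a region that had H3K9ac was 43.3% at a joining distance of 5 kb and 78.1% at 25 kb. The window around transcription start sites was not run, since it needs an annotation of build hg19. With no signal and 1 library per condition, neither the strength of a peak nor its spread between cultures can be given.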

Other observations

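The only row off the 200 bp grid lay on the mitochondrial chromosome of the A2780 H3K27ac list and ended at 16299. This is the length of the mouse mitochondrial genome, while the labels give a human build. The lists also hold no peak on chromosomes 20, 21 or 22, which a mouse genome does not have. How these values came about was not tested, and members in stretches that the lists leave out are missing from every count.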
